A study of Mus musculus with 18 samples.

Results

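Itpk1 was targeted by 3 of the 252 sgRNAs of a pooled CRISPR library that was read in cells with the endogenous Itpk1 gene and in cells from which it had already been deleted. All 3 rows that name Itpk1 as their gene were taken, and each was set against the 24 non-targeting sgRNAs of the same library in all 18 sequenced samples. The remaining 225 sgRNAs target 75 other genes, with 3 sgRNAs each. The cells were sensBa/F3, derived from Ba/F3, a mouse pro-B line that depends on interleukin-3.

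ITPK1-KO cells were a pool of 6 clones with deletions in ITPK1 and without an integrated lentivirus, and ITPK1-WT cells were the parental sensBa/F3 line. Both were transduced with the library and grown for 10 days, after which 1 baseline sample of each was sequenced. The culture held interleukin-3 at 0.2 ng/mL for both backgrounds. ITPK1-KO cells were then stained with CellTrace yellow and ITPK1-WT cells with CellTrace violet, so that dye and genotype cannot be told apart. Equal parts were mixed, and 20000000 cells were placed in the peritoneum of each of 8 mice transgenic for hCD89, the human IgA receptor of myeloid cells. Anti-hHer2 IgA was given to 4 mice and PBS (vehicle) to the other 4, and viable cells of each background were sorted after 16 h. The deposited legend, not the sample labels, names mice 5 to 8 as IgA and mice 1 to 4 as vehicle. Every mouse received the same transduced pools, and p-values rest on how far mice differ after sharing 1 pool per background. Which sgRNA was used to make the ITPK1-KO clones is not given in the sources used here.

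ITPK1, inositol-tetrakisphosphate 1-kinase, phosphorylates soluble inositol phosphates and, with the inositol polyphosphate multikinase IPMK, feeds the synthesis of the highly phosphorylated members of the family. In other work, inositol phosphates made by these kinases were reported to bind MLKL, the pore-forming executioner of necroptosis, and to be needed for its activation. Neither was examined in the mouse cells used here. An sgRNA read here is a tag for the cells that carry it. A low share of reads shows that few of the recovered cells carried the tag, and no read reports the state of the endogenous gene or the identity of the cell.

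The 3 Itpk1 sgRNAs are shown in full because they differed in level within ITPK1-WT cells. They are copied from the deposited identifier table and read 5′ to 3′. Capitals mark the 10 bases at the 3′ end, which in a guide for Streptococcus pyogenes Cas9 lie next to the PAM.

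Itpk1 sg-1: gttcgaacggCCAAGCGATG

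Itpk1 sg-2: cgaacttatcCGAAAGATCG

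Itpk1 sg-3: ggtgggcgagTCCTACACAG

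Each guide has 20 bases and ends in G. Their GC content was 60% for sg-1, 45% for sg-2 and 65% for sg-3, beside a median of 50% over the whole library (25% to 85%) and of 55% over the non-targeting sgRNAs. The closest other sgRNA of the library differed from sg-1 at 10 of 20 positions and from sg-2 and sg-3 at 9 each, on either strand. The 3 guides are thus separate sequences with 1 target gene, and they are not replicates of a treatment.

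Read totals ran from 317564 to 808586 per sample. Reads carry no molecular identifiers, so intervals on shares of reads cover counting error only. The level of an sgRNA is given as a percentage of the median non-targeting sgRNA of the same sample, after 0.5 reads were added to each count. Guides without a target gene also differed widely in level. Among non-targeting sgRNAs of the ITPK1-KO baseline the lowest stood at 9.93% and the highest at 162% of their median. In the ITPK1-WT baseline these were 10.7% and 156%. The library before transduction is not among the 18 samples, so unequal abundance in the starting pool cannot be told apart within these levels.

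Before injection, each Itpk1 sgRNA was more abundant in cells that had lost the gene than in cells that carry it, and the guides differed widely among themselves in both. Itpk1 sg-1 stood at 96.4% of the non-targeting median in ITPK1-KO cells and at 21.7% in ITPK1-WT cells. Itpk1 sg-2 stood at 64.5% in ITPK1-KO cells and at 39.0% in ITPK1-WT cells. Itpk1 sg-3 stood at 49.6% in ITPK1-KO cells and at 10.5% in ITPK1-WT cells.

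All 3 guides were therefore higher in ITPK1-KO cells, sg-1 and sg-3 by more than sg-2. The log2 difference, ITPK1-KO minus ITPK1-WT, was 2.15 for sg-1, 0.73 for sg-2 and 2.23 for sg-3. Counted from the lowest of 252 sgRNAs, sg-1 held place 203, sg-2 place 87 and sg-3 place 54 in ITPK1-KO cells, against places 18, 40 and 14 in ITPK1-WT cells. With 1 baseline sample per background there is no replicate check. Counting error is small beside these differences. For sg-3, the 95% exact binomial interval of the share of reads was 0.258% to 0.287% in ITPK1-KO cells (1406 reads) and 0.0549% to 0.0680% in ITPK1-WT cells (344 reads).

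Among the 76 genes, ordered by the mean log2 level of their sgRNAs from the lowest, Itpk1 held place 36 in the ITPK1-KO baseline and place 7 in the ITPK1-WT baseline. Its mean level was 67.6% of the non-targeting median in ITPK1-KO cells, between Kcnip1 at 67.3% and Casp1 at 68.2%, and the median gene stood at 70.1%. In ITPK1-WT cells it was 20.7%, between Ifnar1 at 20.0% and Bad at 23.9%, with the median gene at 65.8%. With 1 sample per background, no spread can be set against the gaps to these neighbours. The baseline difference between backgrounds was larger for Itpk1, at 1.70 on the log2 scale, than for any other gene in the ITPK1-KO direction, the next being Eif5b at 0.35.

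The same separation was present in cells recovered from vehicle mice. Itpk1 sg-1 stood at 98.4%, 104%, 107% and 95.1% of the non-targeting median in ITPK1-KO cells of mice 1 to 4, and at 18.1%, 18.5%, 17.8% and 16.4% in ITPK1-WT cells of the same mice. Itpk1 sg-2 stood at 70.2%, 68.7%, 67.2% and 65.3% in ITPK1-KO cells, and at 39.0%, 35.9%, 39.0% and 37.0% in ITPK1-WT cells. Itpk1 sg-3 stood at 49.8%, 45.6%, 45.0% and 47.9% in ITPK1-KO cells, and at 9.45%, 7.56%, 8.48% and 8.40% in ITPK1-WT cells.

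For every guide the lowest ITPK1-KO sample lay above the highest ITPK1-WT sample. How many of the 252 sgRNAs separate the backgrounds in this way was not counted. In ITPK1-WT cells of all 4 vehicle mice, sg-3 was below every one of the 24 non-targeting sgRNAs. In ITPK1-KO cells of these mice, sg-1 was above 11 to 16 of the 24, while sg-2 and sg-3 were each above 2.

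In edgeR's quasi-likelihood fit of all 16 recovered samples, the vehicle-mouse ratio of ITPK1-KO over ITPK1-WT was 5.64-fold for sg-1 (log2 2.50, SE 0.049), 1.78-fold for sg-2 (0.83, SE 0.044) and 5.50-fold for sg-3 (2.46, SE 0.069). The adjusted p in edgeR was at most 1.5e-36 for the 3 guides. All 3 were called higher at an adjusted p under 0.05, where 13.9% of the 252 sgRNAs tested were called higher. Ordered from the most positive to the most negative change, they held places 1 (sg-1), 2 (sg-3) and 3 (sg-2) of 252. In the other direction, all 3 sgRNAs against Ipmk (log2 −3.99 to −2.15) changed by more than sg-2. Summed over the guides, Itpk1 was 3.36-fold higher in ITPK1-KO cells (log2 1.75, SE 0.032, adjusted p = 3.3e-45 in edgeR over 76 genes and 24 non-targeting sgRNAs), where 19% of these 100 features were called higher.

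The backgrounds were nearer to each other in IgA mice. The ratio of ITPK1-KO over ITPK1-WT there was 3.81-fold for sg-1 (log2 1.93, SE 0.046), 1.35-fold for sg-2 (0.43, SE 0.043) and 3.62-fold for sg-3 (1.86, SE 0.064), and edgeR's adjusted p was at most 1.6e-16. All 3 were again called higher, where 16.7% of sgRNAs were (42 of 252, or 20 of 252 without mouse 7). The summed count was 2.39-fold higher (log2 1.26, SE 0.031, adjusted p = 2.8e-39 in edgeR), where 16% of the 100 features were called higher.

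In ITPK1-WT cells all 3 Itpk1 sgRNAs rose under anti-Her2 IgA. Itpk1 sg-1 stood at 21.8%, 23.2%, 30.2% and 27.4% of the non-targeting median in mice 5 to 8, which received IgA, against the 16.4% to 18.5% of the vehicle mice given above. Itpk1 sg-2 stood at 51.5%, 44.8%, 53.0% and 51.9% in IgA mice, against 35.9% to 39.0% in vehicle mice. Itpk1 sg-3 stood at 12.3%, 12.1%, 15.4% and 15.7% in IgA mice, against 7.56% to 9.45% in vehicle mice.

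For each guide the 4 IgA mice lay above the 4 vehicle mice without overlap, which was so for 13.9% of the 252 sgRNAs. Mouse 6 was the lowest IgA mouse for sg-2 and sg-3, and mouse 5 for sg-1. As the log2 of the level, sg-1 averaged −1.97 ± 0.21 in IgA mice and −2.50 ± 0.076 in vehicle mice (SD, n = 4 each), sg-2 −0.99 ± 0.11 and −1.41 ± 0.060, and sg-3 −2.86 ± 0.20 and −3.57 ± 0.13. The IgA mice were thus more spread out than the vehicle mice for every guide.

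Against the baseline sample of ITPK1-WT cells, the mean level of the 3 guides moved in opposite directions in IgA and vehicle mice. The mean log2 level of the 3 guides was 0.33 ± 0.16 above that sample in IgA mice and 0.22 ± 0.065 below it in vehicle mice (SD, n = 4 each), and all mice of an arm lay on the same side. By guide, the change in IgA mice averaged 0.23 ± 0.21 for sg-1, 0.37 ± 0.11 for sg-2 and 0.38 ± 0.20 for sg-3. In vehicle mice it averaged −0.30 ± 0.076 for sg-1, −0.047 ± 0.060 for sg-2 and −0.32 ± 0.13 for sg-3. For sg-2 the vehicle mice did not leave the baseline by more than their spread, and mice 1 and 3 lay above it by 0.0019 and 0.0033. For sg-1, IgA mouse 5 stood only 0.0047 above the baseline. The baseline is 1 sample without a replicate, so these offsets carry its own unmeasured error.

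In edgeR's fit of the 8 recovered ITPK1-WT samples, IgA over vehicle was 1.41-fold for sg-1 (log2 0.50, SE 0.077, adjusted p = 5.0e-07), 1.29-fold for sg-2 (0.37, SE 0.053, adjusted p = 4.6e-08) and 1.58-fold for sg-3 (0.66, SE 0.098, adjusted p = 1.7e-07). All 3 were called higher, where 13.9% of the 252 sgRNAs were called higher. By fold change sg-3 held place 1, sg-1 place 4 and sg-2 place 7 of 252. The summed Itpk1 count was 1.37-fold higher (log2 0.46, SE 0.045, adjusted p = 2.4e-09 in edgeR), where 20% of the 100 features were called higher (20 features, or 13 without mouse 3 or mouse 7). It averaged 5110 ± 363 CPM (reads scaled to the TMM library size) in IgA mice and 3723 ± 113 in vehicle mice (SD, n = 4 each).

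In this contrast 35 sgRNAs were called higher and 35 lower, and scaled to the summed non-targeting reads 70 were called higher and 6 lower, with all 3 Itpk1 guides among those higher under both. Of the 24 non-targeting sgRNAs, 1 was called higher and 8 lower, with a median log2 change of −0.059. The exact two-sided permutation test over the 70 splits of 8 mice gave p = 0.0286 for each guide, the smallest that it can give, and 0.153 after adjustment over 252 sgRNAs. No sgRNA passes that adjustment, and 47 had an unadjusted p under 0.05.

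Sample numbers in the names of the read files fall into 2 series, and each series was treated as a sequencing sample sheet. Sheet 1 holds mice 1 to 5 and sheet 2 holds mice 6 to 8 with the baselines, so mouse 5 is the only IgA mouse on the sheet of the vehicle mice. No vehicle mouse shares a sheet with the baselines, so a change of vehicle mice from baseline cannot be told apart from the sheet. In mouse 5 the ITPK1-WT level exceeded the vehicle mean by 0.30 for sg-1, 0.45 for sg-2 and 0.54 for sg-3 on the log2 scale. In mice 6 to 8 the excess averaged 0.60 for sg-1, 0.40 for sg-2 and 0.76 for sg-3. With the sheet as a covariate, sg-2 and sg-3 stayed called (adjusted p = 0.00017 and 0.038 in edgeR) and sg-1 did not (log2 0.29, adjusted p = 0.190).

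Fewer cells of both backgrounds were also sorted from 3 of the 4 IgA mice than from vehicle mice. For ITPK1-KO cells the legend gives 1670000, 2000000, 1500000 and 955000 cells for mice 5 to 8, and 2000000 for each vehicle mouse. For ITPK1-WT cells it gives 1200000, 2000000, 1000000 and 657000 ITPK1-WT cells for mice 5 to 8, and 2000000 for each vehicle mouse. If each cell held 1 sgRNA, the reads correspond to 5941, 9367, 5518 and 3472 Itpk1-tagged cells in IgA mice and to 7153 to 7643 in vehicle mice. The rarest tag, sg-3, would then have been held by 574 to 1417 cells in IgA mice and by 872 to 1084 in vehicle mice. A larger share with a smaller number of sorted cells cannot be split here into more survivors with the tag and fewer without it.

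In ITPK1-KO cells, which lack the gene before any sgRNA arrives, none of the Itpk1 guides was called in the IgA comparison. Itpk1 sg-1 stood at 97.2%, 93.2%, 97.7% and 98.0% of the non-targeting median in IgA mice, against 95.1% to 107% in vehicle mice. Itpk1 sg-2 stood at 71.4%, 64.7%, 65.9% and 65.3% in IgA mice, against 65.3% to 70.2% in vehicle mice. Itpk1 sg-3 stood at 50.2%, 48.0%, 48.5% and 50.9% in IgA mice, against 45.0% to 49.8% in vehicle mice.

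The arms overlapped for every guide, as they did for most of the library. Without overlap, 14 of the 252 sgRNAs lay higher in IgA mice and 16 lower. Vehicle mouse 4 was the lowest vehicle mouse for sg-1 and sg-2, and IgA mouse 6 was the lowest IgA mouse for all 3 guides. In edgeR's fit of the 8 ITPK1-KO samples the log2 change, IgA minus vehicle, was −0.065 for sg-1 (SE 0.030, adjusted p = 0.179), −0.023 for sg-2 (SE 0.037, adjusted p = 0.774) and 0.063 for sg-3 (SE 0.045, adjusted p = 0.465). Of 251 sgRNAs tested, 10.4% were called in either direction. At an unadjusted p under 0.05 the count was 1 of 3, which was sg-1, and 58 of 251 over all sgRNAs (23.1%).

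The summed count in ITPK1-KO cells averaged 12235 ± 257 CPM in IgA mice and 12457 ± 168 in vehicle mice (SD, n = 4 each). Its log2 change was −0.021 (SE 0.019, adjusted p = 0.529 in edgeR), where 10% of the 100 features were called in either direction. The exact two-sided permutation test gave p = 0.2 for sg-1, 0.571 for sg-2 and 0.114 for sg-3. The guides also stayed close to the ITPK1-KO baseline, from which their mean log2 level differed by 0.015 ± 0.038 in IgA mice and by 0.021 ± 0.029 in vehicle mice (SD, n = 4 each).

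The IgA effects in both backgrounds were then set against each other directly. Within each mouse, the log2 level of sg-1 in ITPK1-KO cells exceeded that in ITPK1-WT cells by 2.16, 2.00, 1.69 and 1.84 in IgA mice 5 to 8, and by 2.44, 2.49, 2.59 and 2.54 in vehicle mice 1 to 4. For sg-2 the excess was 0.47, 0.53, 0.32 and 0.33 in IgA mice, and 0.85, 0.94, 0.78 and 0.82 in vehicle mice. For sg-3 it was 2.03, 1.98, 1.66 and 1.70 in IgA mice, and 2.40, 2.59, 2.41 and 2.51 in vehicle mice.

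For all 3 guides every IgA mouse, mouse 5 of the shared sheet included, had a smaller excess than every vehicle mouse, and 2.78% of the 252 sgRNAs had such a separation in this direction. Mice 7 and 8 had the smallest excess for each guide. The excess stood above 0 in all 8 mice for all 3 guides, which was not counted for the other sgRNAs.

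The interaction term of edgeR's fit, the IgA effect in ITPK1-KO minus that in ITPK1-WT cells, was −0.57 for sg-1 (SE 0.068, adjusted p = 3.4e-11), −0.40 for sg-2 (SE 0.062, adjusted p = 2.3e-07) and −0.60 for sg-3 (SE 0.096, adjusted p = 5.4e-07). All 3 were called lower, where 2.38% of 252 sgRNAs were called lower (6, or 10 without mouse 6), and they were the first 3 of 252 by p. The summed count gave −0.49 (SE 0.044, adjusted p = 3.5e-13 in edgeR), the first of 100 features by p, where 3% were called lower. Both samples of a mouse lie on the same sheet, so a sheet covariate cancels in this difference and is no test of it. The exact permutation test of the per-mouse excess gave its smallest p of 0.0286 for each guide, which is 0.540 after adjustment over 252 sgRNAs. No sgRNA passes that adjustment, and 12 had an unadjusted p under 0.05.

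The proportions among the 3 guides, which do not depend on how samples are scaled, also differed between backgrounds. Reads of sg-1 over reads of sg-2 were 1.5 in the ITPK1-KO baseline and 0.56 in the ITPK1-WT baseline. In recovered ITPK1-KO cells this ratio averaged 1.45 ± 0.062 in IgA mice and 1.49 ± 0.083 in vehicle mice, and in ITPK1-WT cells it averaged 0.51 ± 0.062 in IgA mice and 0.47 ± 0.031 in vehicle mice (SD, n = 4 each). sg-1 was the more abundant of this pair in every ITPK1-KO sample and the less abundant in every ITPK1-WT sample.

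The ratio of sg-1 over sg-3 was close between backgrounds. It was 1.95 in the ITPK1-KO baseline and 2.06 in the ITPK1-WT baseline. In recovered cells it ran from 1.93 to 2.38 in ITPK1-KO samples and from 1.74 to 2.45 in ITPK1-WT samples. It is thus the ratios with sg-2 that set the backgrounds apart. As shares of Itpk1 reads all 3 guides differed. In vehicle mice sg-1 averaged 46.8% in ITPK1-KO and 27.7% in ITPK1-WT cells, and sg-3 averaged 21.8% and 13.2%.

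The ratio of sg-2 over sg-3 in ITPK1-WT cells ran from 3.31 to 4.21 in IgA mice and from 4.13 to 4.76 in vehicle mice, so the arms overlapped. In ITPK1-KO cells it ran from 1.28 to 1.42 in IgA mice and from 1.36 to 1.51 in vehicle mice. Within the trio, sg-2 made up 31.4% ± 0.90 of Itpk1 reads in ITPK1-KO cells of IgA mice and 31.4% ± 0.62 in those of vehicle mice, against 56.1% ± 2.86 and 59.1% ± 0.94 in ITPK1-WT cells of the same arms (SD, n = 4 each). Guides to other genes were not compared in this way.

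The place of Itpk1 among the 76 genes followed the background more than the arm. Counted from the lowest mean level, it ran from 40 to 43 in ITPK1-KO cells of IgA mice and from 41 to 42 in those of vehicle mice. In ITPK1-WT cells it was 8 or 9 in IgA mice and 6 in all vehicle mice. The mean level of the 3 guides was 68.3% ± 1.78 of the non-targeting median in ITPK1-KO cells of IgA mice and 68.6% ± 1.38 in those of vehicle mice, against 26.1% ± 2.91 and 17.8% ± 0.81 in ITPK1-WT cells of the same arms (SD, n = 4 each).

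Of 16 inositol phosphate kinases and related enzymes considered, the library targets 1 besides Itpk1, the multikinase gene Ipmk. Its summed sgRNAs rose under IgA in ITPK1-WT cells by 0.45 on the log2 scale (SE 0.054, adjusted p = 1.1e-07 in edgeR), beside 0.46 for Itpk1. In ITPK1-KO cells its change was −0.16 (SE 0.11, adjusted p = 0.350 in edgeR), and the difference of the effects was −0.63 (SE 0.11, adjusted p = 2.4e-05 in edgeR). Between backgrounds Ipmk sgRNAs stood the other way round from those of Itpk1, with a log2 ratio of ITPK1-KO over ITPK1-WT of −3.34 in IgA mice and −2.71 in vehicle mice.

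A list of 10 genes on the necroptosis route through MLKL was all in the library. In ITPK1-WT cells 5 of the 10 were called higher under IgA and 3 lower, with a median log2 change of 0.033, beside 19 higher and 9 lower of all 76 genes and a median of 0.0062. Among the 5 were Cyld, which removes linear and lysine-linked ubiquitin chains at the TNF receptor (0.14, SE 0.024, adjusted p = 5.3e-05 in edgeR), and Spata2, its adaptor (0.13, SE 0.033, adjusted p = 0.0047 in edgeR). The others called higher were Ripk3 (0.092, SE 0.024, adjusted p = 0.0057 in edgeR), Tnfrsf1a (0.070, SE 0.021, adjusted p = 0.012 in edgeR) and Pgam5 (0.062, SE 0.024, adjusted p = 0.044 in edgeR). The 3 called lower were Fadd, the adaptor of death receptors (−0.13, SE 0.026, adjusted p = 0.00031 in edgeR), Zbp1, a nucleic acid sensor (−0.073, SE 0.018, adjusted p = 0.0036 in edgeR), and Ripk1, the upstream kinase of the route (−0.063, SE 0.021, adjusted p = 0.022 in edgeR). Mlkl had a value of 0.0032 (SE 0.020, adjusted p = 0.916 in edgeR). Single non-targeting sgRNAs in the same fit ran from −0.20 to 0.16, and every call in this list lies within that range. Their median in the sgRNA fit was −0.059, near the values of Zbp1 and Ripk1. These calls are thus relative to TMM scaling, and a loss of Zbp1 or Ripk1 guides relative to the non-targeting sgRNAs is not shown.

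In ITPK1-KO cells 1 of the 10 was called higher, Cyld (0.19), and 1 lower, Ripk1 (−0.26), with a median of 0.016, beside 6 higher and 4 lower of 76 genes and a median of 0.0083. In the difference of the IgA effects, Ripk1 alone of the 10 was called (−0.21, SE 0.031, adjusted p = 1.0e-06 in edgeR), with a list median of −0.012, beside 1 higher and 3 lower of 76 genes. The 3 called lower in that difference were Itpk1, Ipmk and Ripk1. Between backgrounds, 1 of the 10 was called higher and 4 lower in ITPK1-KO cells of IgA mice (12 and 21 of 76 genes), and 1 higher and 3 lower in those of vehicle mice (18 and 18 of 76 genes).

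Over the 8 recovered ITPK1-WT samples, the genes whose mean log2 level ran most like that of Itpk1 were Hspbap1 (Pearson's r = 0.964), Cyld (0.934) and Spata2 (0.934). Ipmk followed in place 4 of 75 (0.920). The median over the 75 other genes was 0.645, so that most genes moved with Itpk1 to some degree over these samples. Over all 18 samples the order was another, with Tmem57 (0.827), Casp12 (0.825) and APAF1 (0.823) most like Itpk1 and Ipmk in place 74 of 75 (−0.939), beside a median of 0.119. Those 18 points fall into separate groups by background. In both sets the points share mice, a non-targeting median per sample and the split into arms, and these values are a description.

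The authors' deposited MAGeCK tables also order the guides as sg-3, sg-1 and sg-2 by size of change in ITPK1-WT cells, with none past an FDR of 0.05. In the authors' deposited table for ITPK1-WT cells, the log2 fold change of IgA over vehicle was 0.547 for sg-1 (p = 0.0855), 0.466 for sg-2 (p = 0.0365) and 0.723 for sg-3 (p = 0.0925), with an FDR of 0.998 for each, and no sgRNA of that table has an FDR under 0.05. These are places 4, 6 and 1 of 252 in the authors' deposited table. In the authors' deposited table for ITPK1-KO cells, the values were −0.030 for sg-1, −0.035 for sg-2 and 0.084 for sg-3, with FDRs of 0.95 to 0.974, and 12 sgRNAs have an FDR under 0.05. The calls for Itpk1 in ITPK1-WT cells thus depend on the test, while the sign and size per guide were close between edgeR and the authors' deposited table.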

How the data were processed

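The authors deposited raw counts, as whole numbers of reads for each sgRNA. They kept reads that matched the library without mismatch and scored them with MAGeCK RRA (version 0.5.6), per the series' design text. The aligner is not given in the sources used here. For each sgRNA and background, the authors' deposited tables give a log2 fold change, a two-sided p-value and an FDR (a p-value adjusted over sgRNAs). Log2 fold changes recomputed from the counts had a Pearson's r of 0.996 (ITPK1-WT) and 0.999 (ITPK1-KO) with the authors' deposited values across sgRNAs, whose median was higher by 0.056 and 0.017. Their 4 columns of joined per-sample values were not used. Cells sorted, another unit, come from the legend that the authors deposited. No coordinates are printed, since no genome build is named in the files.

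Counts were fitted in R 4.3.3 with edgeR 4.0.16 (glmQLFit and glmQLFTest, TMM scaling, sgRNAs averaging 10 reads or more, Benjamini-Hochberg over all features, threshold 0.05), each background apart for IgA against vehicle, and all 16 recovered samples together for the other contrasts. Gene values used counts summed over 3 sgRNAs. Levels are log2 of the share of reads, with 0.5 reads added, minus the same for the median of 24 non-targeting sgRNAs. Exact permutation tests ran in Python 3.11.15 with all 70 splits of 8 mice. Both samples of a mouse come from the same animal, so mouse numbers pair them. Over the 238 sgRNAs that averaged 500 reads or more, deviations of the pair from their group means correlated at −0.084 to 0.26. The planned fit did not use the mouse as a block. Same-group samples differed by more than sampling noise (2.25 to 5.62 as chi-square over its degrees of freedom), so none was a duplicate. The procedure was tested on simulated data.

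Alternatives were DESeq2's size factors and Wald test (version 1.42.0), total counts, scaling to the non-targeting sgRNAs, no filter or a mean of at least 200 reads, robust dispersion, a block for the mouse, the sample sheet as a covariate, leaving out each mouse, a joint fit, 5 reads added and samples thinned to 317564 reads. The members and lists were chosen with earlier results of these data known. Genes other than Itpk1 are named only as members of the list of inositol phosphate enzymes or of the necroptosis route, as neighbours in the order of baseline levels or differences, or as the 3 most like Itpk1 in level.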

Additional observations from a re-analysis of the deposited data

Results flagged for a closer look

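In 2 of 16 groups of 4 samples (4 groups for each guide and 4 for their mean), mouse 6 stood further from the other IgA mice than Dixon's test allows at the 95% level. Its log2 level of sg-1 in ITPK1-KO cells was −0.102, and its log2 level of sg-2 in ITPK1-WT cells was −1.16. Chance alone marks about 1 group in 20.

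The IgA effect differed between backgrounds by edgeR's interaction term, ITPK1-KO minus ITPK1-WT, for each guide and for their sum. The log2 difference was −0.57 for sg-1, −0.40 for sg-2, −0.60 for sg-3 and −0.49 for the summed count. In ITPK1-WT cells every IgA mouse lay above every vehicle mouse for all 3 guides, while in ITPK1-KO cells the arms overlapped. Over all 252 sgRNAs, 13.9% lay above without overlap in ITPK1-WT cells. In ITPK1-KO cells 14 lay above and 16 below without overlap, and most sgRNAs overlapped as the Itpk1 guides did.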

How the results depend on the processing

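Over 34 results and 469 alternative values, 464 kept their direction and their side of the threshold, or moved by less than the spread between mice. Some of the 464 could hardly change and are no support. Among them are counts of guides past adjustment in the permutation test, which its smallest p holds at 0. The sheet covariate in contrasts between backgrounds is another, since both samples of a mouse share a sheet. Small changes in a count of called guides were also taken as kept, among them the fall from 3 to 2 in ITPK1-WT cells given below. The mean log2 level of Itpk1 in ITPK1-KO cells of IgA mice, −0.55, was −0.51 relative to the summed non-targeting reads and −0.51 on sheet 1 only, which is mouse 5. When the sheet entered as a covariate, so that only mouse 5 was set against the vehicle mice, the ITPK1-KO log2 changes that were not called turned to 0.068 for sg-2 (edgeR adjusted p = 0.726, range over alternatives 0.397 to 0.980) and 0.014 for the summed count (0.834, range 0.277 to 0.886). In that fit sg-1 in ITPK1-WT cells was no longer called (0.29, adjusted p = 0.190, the highest over its alternatives), and 2 of 3 guides were. The cause was not tested. With each mouse as a replicate block, the summed difference of IgA effects was −0.49 (edgeR adjusted p = 1.1e-33, beside 3.5e-13 in the planned fit). Deviations of the 2 samples of a mouse correlated at only −0.084 to 0.26, so the smaller p is not read as stronger evidence. The block changed no call of an Itpk1 guide or of their sum. Leaving out any mouse changed none of these calls.

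Counts over the whole library moved more. Scaled to the non-targeting sgRNAs, calls in the 16-sample contrast of ITPK1-KO against ITPK1-WT cells of IgA mice were 18 higher and 63 lower, against 42 and 46 with TMM. In vehicle mice they were 31 and 50, against 35 and 45. In the ITPK1-KO IgA comparison they were 17 and 8, against 14 and 12. In the difference of IgA effects they were 2 and 7, against 4 and 6. The same scaling of the 100 summed features gave 37 higher and 3 lower in ITPK1-WT cells under IgA (20 and 15 with TMM), 12 and 3 in ITPK1-KO cells (6 and 4), and 6 and 29 (16 and 21) and 12 and 21 (19 and 19) for ITPK1-KO against ITPK1-WT cells of IgA and of vehicle mice. With the sheet as a covariate, 17 sgRNAs (9 of 100 summed features) were called in ITPK1-WT cells, against 70 (35), and 15 (5) in ITPK1-KO cells, against 26 (10). Leaving out single mice gave 45 to 94 sgRNAs (lowest without mouse 7) and 18 to 46 summed features (18 without mouse 3, 20 without mouse 7 or 8) called in ITPK1-WT cells under IgA. It gave 20 to 42 sgRNAs called higher in ITPK1-KO against ITPK1-WT cells of IgA mice (20 without mouse 7). In the difference of IgA effects it gave 8 to 17 sgRNAs and 4 to 7 features, the highest of both without mouse 6. DESeq2 called 7 of 100 summed features in the difference of IgA effects, against 4 with edgeR.

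Depth limits the rarest tag most: sg-3 in ITPK1-WT cells had 232 to 573 reads. Each background is a single transduced pool, the baseline has no replicate, and dye, genotype and clone pooling cannot be told apart. The smallest exact p for 4 against 4 mice is 0.0286, which no sgRNA carries past adjustment.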
